A study of Homo sapiens with 6 samples.

Results

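DNA replication and S-phase genes were followed in Huh-7 cells kept in amiloride. The group held 40 genes, fixed by name: the factors that load and start the replicative helicase, the polymerases and their clamp, the enzymes of deoxynucleotide supply, and a few regulators of the step into S phase. A gene was read through every probe set of the array that carried its symbol alone, and its level was the median over them of the log2 intensity, with values under 1 set to 1. All 40 genes were measured, out of 18717 genes with at least 3 probe sets.

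A cell copies its DNA in stages. In G1 the origin recognition complex, CDC6 and CDT1 load the MCM helicase on origins, which is called licensing. At the start of S phase CDC45 and the GINS complex join the helicase and make it active, polymerase alpha with its primase starts each strand, and polymerases epsilon and delta extend them with the sliding clamp PCNA, which replication factor C loads. Transcription of many of these genes is driven by E2F factors, which are released when cyclin-dependent kinases phosphorylate RB1, so that in dividing cells the genes tend to be expressed together in late G1 and S phase.

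Huh-7 is an established human hepatocellular carcinoma line, and amiloride is a diuretic whose targets are the epithelial sodium channel and the sodium-proton exchangers. Total RNA came from 3 cultures that had 0.5 mM amiloride in the medium over 24 hours and from 3 untreated ones, and was read on exon arrays of the Human Exon 1.0 ST design, where a transcript has probe sets in most of its exons. The labels call the cultures biological replicates 1 to 3 of each group, they come from a single line, and amiloride was added out of a DMSO stock while the controls are labelled untreated. RNA was taken from whole cultures, so fewer cells in S phase and less RNA in each cell cannot be told apart.

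The arrays were not on one scale. Median intensities were 12, 4.71 and 6.26 on amiloride replicates 1, 2 and 3, against 13.1, 5.08 and 6.42 on control replicates 1, 2 and 3. Values are therefore mostly given below as relative levels, meaning the log2 level of a gene minus the median log2 level of all genes on the same array. Control replicate 1 stood apart from the other arrays, with a Pearson correlation of 0.793 to 0.842 across gene levels, while each of the other arrays had a partner at 0.932 or higher. Values without both replicate 1 arrays are given after the account of the roles. Hepatoma markers such as albumin and alpha-fetoprotein had a mean relative level of 4.66 to 4.83 on amiloride arrays and 4.08 to 5.17 on control arrays (9 genes), whereas 10 markers of leukocytes, endothelium, fibroblasts and neurons lay between -0.87 and -0.73 on amiloride arrays and between -0.64 and -0.43 on control arrays.

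No replication gene passed the test on all 6 arrays. With limma, fitted to all 18717 genes and adjusted by the Benjamini-Hochberg method, 0 of the 40 genes had an adjusted p under 0.05, against 0.0321% of all genes higher and 0% lower. The smallest adjusted p among the 40 was 1.00. At an unadjusted p under 0.05, 1 of the 40 genes was higher, namely PRIM2, and 0 were lower, while among all genes 1.99% were higher and 0.112% lower. The fit gave all genes 1 shared standard error of 0.66 on the log2 scale, into which the difference in brightness between the replicate numbers entered, so missing the threshold says nothing on whether a gene stayed the same. With 3 arrays in each group the smallest p an exact permutation test allows is 0.1, so single genes carry none.

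Most of the 40 genes nevertheless lay on the higher side in amiloride. The mean relative level was above that of the controls for 29 of 40 genes, or 72.5%, against 44.7% of all genes. Among the other lists read, that share was 71.4% for other replication genes, 68% for E2F and cyclin control and 60.9% for mitosis. It was 54.5% for further nucleotide supply genes, 55.6% for hepatoma markers and 10% for markers of other cells. A share above that of all genes was thus not particular to the 40. The 40 genes were also brighter than the median gene, with a median relative level of 1.11 to 1.81 over the arrays. The shares were not matched for level. The median difference was 0.33 for the 40 genes against -0.06 for all genes. For 15 genes (37.5%, against 19.8% of all genes) the amiloride array was the higher one at every replicate number, and for 5 genes (12.5%, against 18.4%) it was the lower one. Relative levels of the groups did not overlap for 9 genes that were higher in amiloride and for 1 that was lower, beside 10.2% of all genes higher and 8.17% lower. On the intensities as deposited, 2 genes were higher without overlap (6.25% of all genes) and 0 lower (0.508%). The median difference of the 40 genes on the intensities as deposited was 0.43, but -0.14 when amiloride replicate 1 was left out, where the median of all genes was -0.37. These counts and medians are descriptions with no test.

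**Figure D1:**
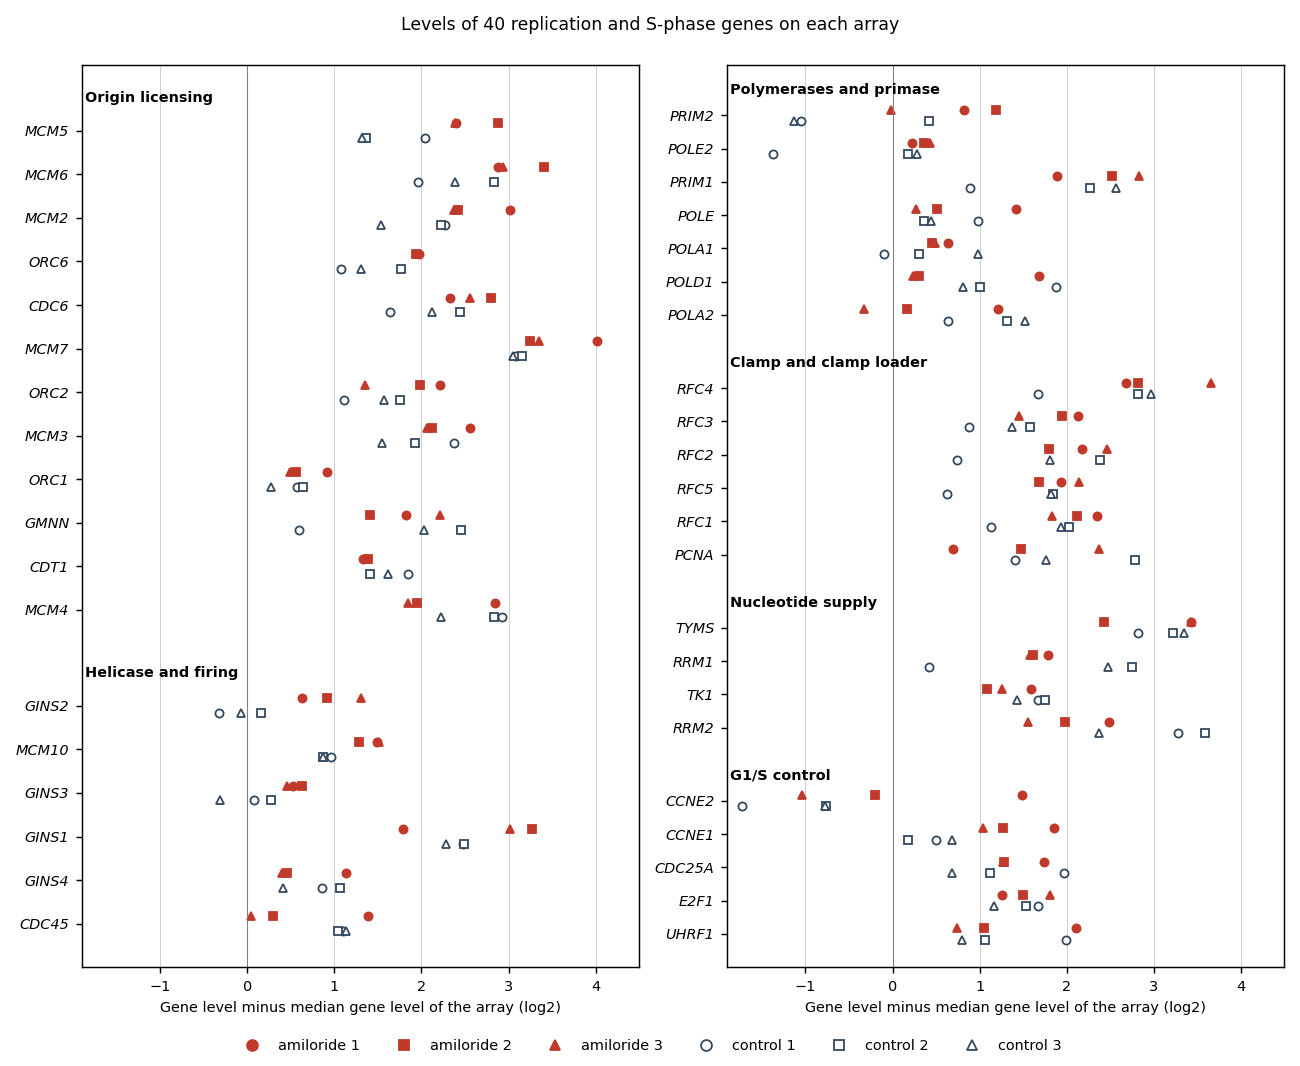
Relative level (log2, gene level minus the median gene level of the array) of 40 replication and S-phase genes by role, with 1 point for each array. Filled red marks are the 3 amiloride arrays and open dark marks the 3 control arrays. The red marks of GINS2, MCM5, CCNE1, MCM6, MCM2, ORC6, MCM10, GINS3 and MCM7 all lie right of the open marks, those of CDT1 all lie left, and the groups overlap in the other 30 genes.

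The promoters of these genes were searched for the E2F sequence in RefSeq, build GRCh38.p14, because E2F is the factor best known to drive them. The 4 stretches that follow come from 2 genes with higher and 2 with lower relative levels in amiloride, each the 160 bases before the start of the gene on its own strand, with the E2F matches in capitals. The MCM6 stretch lies at chr2:135876444-135876603 (minus strand), GINS2 at chr16:85688955-85689114 (minus strand), CDT1 at chr16:88803629-88803788 (plus strand) and POLA2 at chr11:65261802-65261961 (plus strand).
MCM6: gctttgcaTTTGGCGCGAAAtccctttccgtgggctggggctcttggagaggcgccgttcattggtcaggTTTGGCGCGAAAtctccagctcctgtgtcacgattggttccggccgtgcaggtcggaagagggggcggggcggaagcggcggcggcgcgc
GINS2: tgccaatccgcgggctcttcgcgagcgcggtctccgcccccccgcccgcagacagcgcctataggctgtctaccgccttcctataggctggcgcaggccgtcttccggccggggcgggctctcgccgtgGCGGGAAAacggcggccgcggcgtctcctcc
CDT1: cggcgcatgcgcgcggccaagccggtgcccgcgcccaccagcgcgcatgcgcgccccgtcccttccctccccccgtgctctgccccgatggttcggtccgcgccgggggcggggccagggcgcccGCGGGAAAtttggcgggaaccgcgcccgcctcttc
POLA2: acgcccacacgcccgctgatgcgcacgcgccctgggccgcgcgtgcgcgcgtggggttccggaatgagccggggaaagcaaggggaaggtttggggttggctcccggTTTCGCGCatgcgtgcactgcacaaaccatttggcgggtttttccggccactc
Each run of capitals in MCM6 holds a pair of overlapping matches, 1 on either strand, and the other stretches hold 1 match each.

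The letters searched were TTTCCCGC, TTTCGCGC, TTTGCCGC and TTTGGCGC on both strands in the 250 bases before each start, and 36 of the 40 genes had a promoter in the table. A match was present in 14 of the 36 (38.9%), against 979 of 35114 promoters in the table (2.79%). The CCAAT box, searched as CCAAT on both strands, was present in 22 of the 36 (61.1%), against 32% of all promoters. Genes on the higher and on the lower side held E2F matches, as the stretches above show. The median difference in relative level, amiloride minus control, was 0.13 in the 14 genes with a match, 10 of them above 0, and 0.49 in the 22 without, 17 of them above 0. A match is a string of letters and not a site shown to be bound. Other forms of the site were not searched, so a gene without a match was not shown to lack one.

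The licensing genes, counted here with the inhibitor geminin, were the largest of the roles. Of 12 such genes, 10 (83.3%) had a higher mean relative level in amiloride, 7 of them at every replicate number, and the median difference was 0.40. That share was 83.3% as well for the clamp and its loader (6 genes) and 100% for the regulators of S-phase entry (5 genes). Within the MCM2 to MCM7 ring, the core of the helicase, 5 of 6 genes were higher in amiloride at every replicate number and MCM4 was lower at every one.

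MCM5, a subunit of that ring, had relative levels of 2.40, 2.88 and 2.39 on amiloride arrays, against 2.04, 1.37 and 1.32 on control arrays. All amiloride arrays lay above all control arrays, the means being 2.56 ± 0.28 in amiloride and 1.58 ± 0.40 in controls (SD, n = 3 each), a 1.97-fold difference. MCM6, another subunit of the ring, had 2.87, 3.41 and 2.94 on amiloride arrays, against 1.96, 2.83 and 2.38 on control arrays. The amiloride arrays were again the highest, by 0.68 on average or 1.61-fold, and MCM6 was 1 of the 2 genes whose groups did not overlap on the intensities as deposited either. Those log2 intensities were 7.78, 6.88 and 6.66 for MCM6 on amiloride arrays, against 6.65, 6.21 and 6.11 on control arrays, where the dimmest amiloride array passed the brightest control array by a narrow margin. By limma the difference for MCM6 as deposited was 0.78 with an adjusted p of 1.00.

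MCM2 had relative levels of 3.01, 2.42 and 2.37 in amiloride, against 2.28, 2.22 and 1.54 in controls. MCM7 had 4.02, 3.25 and 3.35 in amiloride, against 3.09, 3.15 and 3.06 in controls. In both genes the groups were separate, and in MCM7 the distance was mostly that of replicate 1, at 0.93, with 0.09 at replicate 2 and 0.29 at replicate 3. MCM3, which also belongs to the ring, overlapped between the groups although each of its 3 differences lay above 0 (0.18, 0.19 and 0.52). MCM4, named because it went the other way in a ring of otherwise higher genes and so chosen after its values were seen, had 2.84, 1.95 and 1.84 in amiloride, against 2.93, 2.83 and 2.23 in controls. The amiloride array of MCM4 was the lower one at each replicate number, by 0.09, 0.88 and 0.38, but the groups overlapped.

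ORC6, the smallest subunit of the origin recognition complex, had relative levels of 1.97, 1.94 and 1.96 in amiloride, against 1.07, 1.76 and 1.31 in controls. The amiloride arrays lay close together and above all controls, with a mean of 1.96 ± 0.02 in amiloride and 1.38 ± 0.35 in controls (SD, n = 3 each). ORC1 and ORC2, 2 further subunits, differed by 0.16 and 0.37 with overlap. CDC6, the ATPase that works with the complex to load the ring, was higher by 0.69, 0.36 and 0.44 at replicates 1, 2 and 3, with overlap between the groups.

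CDT1, the loading factor that brings the MCM ring to origins, was the 1 gene lower without overlap. Its relative levels were 1.32, 1.39 and 1.36 in amiloride, against 1.85, 1.41 and 1.61 in controls. The highest amiloride array and the lowest control array of CDT1 nearly met, the mean difference was -0.27, and on the intensities as deposited the groups overlapped. Geminin (GMNN), the inhibitor that binds CDT1 after origins have fired, differed by 1.23, -1.04 and 0.19 at replicates 1, 2 and 3, so its mean difference of 0.13 stood for no common direction.

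Among the 6 genes that turn the loaded ring into an active helicase, 4 were higher and 2 were lower on average, and the 4 GINS subunits did not share a direction. GINS2 had relative levels of 0.62, 0.91 and 1.30 in amiloride, against -0.32, 0.16 and -0.07 in controls. With means of 0.95 ± 0.34 in amiloride and -0.08 ± 0.24 in controls (SD, n = 3 each), it was 2.03-fold higher in relative level, the widest distance among the genes without overlap. On the intensities as deposited GINS2 had log2 values of 5.53, 4.39 and 5.02 in amiloride, against 4.38, 3.54 and 3.66 in controls, also without overlap, although amiloride replicate 2 and control replicate 1 nearly met. The limma difference for GINS2 was 1.12, with an adjusted p of 1.00.

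GINS3 had relative levels of 0.53, 0.63 and 0.46 in amiloride, against 0.08, 0.27 and -0.32 in controls. MCM10, which helps to start the helicase, had 1.49, 1.28 and 1.51 in amiloride, against 0.96, 0.87 and 0.87 in controls. Both genes were separate between the groups, and the differences of MCM10 lay close together at 0.53, 0.41 and 0.65 for replicates 1, 2 and 3. GINS1 was lower in amiloride at replicate 1, by 0.69, and higher at replicates 2 and 3, by 0.78 and 0.73. GINS4 differed by 0.28, -0.60 and -0.01, and its log2 difference was -0.02 as deposited and 0.03 after quantile normalization.

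CDC45, the partner of GINS in the active helicase, had relative levels of 1.38, 0.30 and 0.04 in amiloride, against 1.10, 1.04 and 1.13 in controls. The controls of CDC45 lay close together, amiloride replicate 1 lay above them and amiloride replicates 2 and 3 lay well below. The mean difference for CDC45 was -0.52.

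The polymerases split between subunits of one enzyme. PRIM2, the large primase subunit, had relative levels of 0.83, 1.19 and -0.02 in amiloride, against -1.05, 0.42 and -1.13 in controls. Its mean difference of 1.25, or 2.39-fold, was the largest of the 40 genes, and amiloride was the higher at each replicate number although amiloride replicate 3 lay below control replicate 2. RefSeq lists a PRIM2 pseudogene, and the part of near-identical copies in these values was not tested. PRIM1, the catalytic primase subunit, was higher by 0.99, 0.25 and 0.27 at replicates 1, 2 and 3.

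POLA2, the accessory subunit of polymerase alpha, had relative levels of 1.21, 0.16 and -0.33 in amiloride, against 0.64, 1.32 and 1.52 in controls. Amiloride replicate 1 lay above control replicate 1 by 0.57, while the amiloride arrays of replicates 2 and 3 lay below their controls by 1.15 and 1.85. The catalytic subunit POLA1 differed by 0.73, 0.15 and -0.50. POLD1, the catalytic subunit of polymerase delta, was lower in amiloride at every replicate number (-0.19, -0.70 and -0.57), with overlap, and POLE, that of polymerase epsilon, differed by 0.14 on average. POLE2, the second subunit of polymerase epsilon, was higher at every replicate number by 1.60, 0.17 and 0.14, where control replicate 1 was the low array at -1.37.

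The 5 replication factor C genes, RFC1 to RFC5, made a group with like values. All 5 had a higher mean relative level in amiloride, with differences between 0.40 and 0.57. Their median difference was 1.25 at replicate 1, -0.01 at replicate 2 and 0.32 at replicate 3, and in each gene the lowest of the 6 arrays was control replicate 1. PCNA, the clamp that they load, had relative levels of 0.69, 1.47 and 2.37 in amiloride, against 1.40, 2.78 and 1.76 in controls. The arrays of PCNA were scattered in both groups, and its difference of -0.47 was smaller than either spread (SD 0.84 in amiloride and 0.72 in controls).

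The nucleotide enzymes were the 1 role in which no gene had a higher mean relative level, although TYMS turned to 0.06 on the log2 intensities as deposited. RRM2, the regulated subunit of ribonucleotide reductase that is limiting for deoxynucleotides, had relative levels of 2.49, 1.98 and 1.55 in amiloride, against 3.28, 3.59 and 2.37 in controls. The amiloride array was the lower one at each replicate number, by 0.78, 1.61 and 0.82, and only amiloride replicate 1 reached above control replicate 3. With means of 2.01 ± 0.47 in amiloride and 3.08 ± 0.63 in controls (SD, n = 3 each), RRM2 in amiloride was 0.476 times the control level, the lowest ratio of the 40 genes, and limma gave the intensities as deposited a difference of -0.97 with an adjusted p of 1.00. When 7 probe sets annotated to C2orf48, now a synonym of RRM2, were added to its 19, an alternative chosen after seeing the data, that difference was -0.45.

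RRM1, the large subunit of the same enzyme, had relative levels of 1.79, 1.61 and 1.58 in amiloride, against 0.42, 2.75 and 2.48 in controls. The amiloride arrays lay close together, below 2 of the controls and far above control replicate 1. Thymidylate synthase (TYMS) differed by 0.60, -0.80 and 0.08 and thymidine kinase 1 (TK1) by -0.07, -0.66 and -0.17 at replicates 1, 2 and 3. RefSeq lists pseudogenes of RRM2, TYMS and PCNA, and their part in these values was not tested.

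Of the regulators of S-phase entry, CCNE1 alone was separate between the groups. Cyclin E1 activates the kinase CDK2 at the end of G1, and CCNE1 had relative levels of 1.85, 1.27 and 1.03 in amiloride, against 0.50, 0.18 and 0.69 in controls. The means were 1.39 ± 0.42 in amiloride and 0.46 ± 0.25 in controls (SD, n = 3 each), a 1.90-fold difference. CCNE2, for the closely related cyclin E2, had 1.48, -0.21 and -1.04 in amiloride, against -1.73, -0.77 and -0.78 in controls. Its mean difference of 1.17 came from replicate 1, at 3.22, with 0.56 at replicate 2 and -0.26 at replicate 3. E2F1, the phosphatase gene CDC25A and UHRF1, which recognizes hemimethylated DNA behind the fork, had mean differences of 0.07, 0.17 and 0.01.

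**Figure D2:**
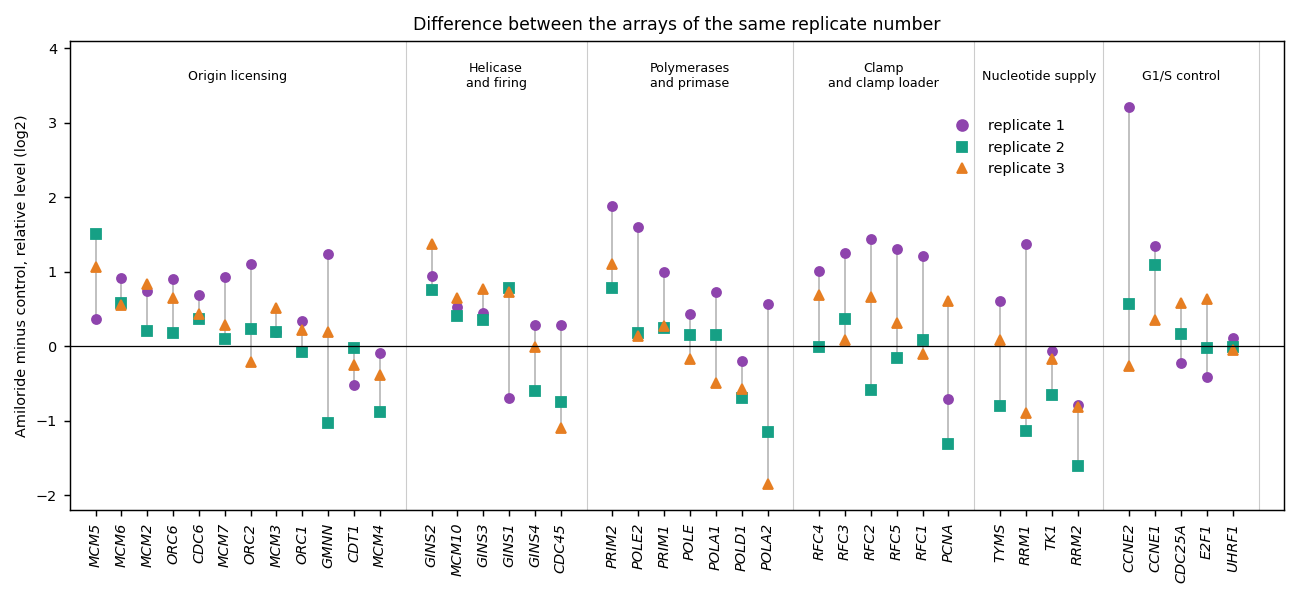
Amiloride minus control in relative level (log2) for 40 genes by role, with 1 mark for each replicate number and a line over their range. All 3 marks lie above 0 for 15 genes and below 0 for 5 genes, and the marks of replicate 1 lie apart from those of replicates 2 and 3 in POLA2, RRM1, GINS1, CCNE2 and POLE2.

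The replicate numbers did not carry the same difference. The median over the 40 genes was 0.65 at replicate 1, 0.12 at replicate 2 and 0.24 at replicate 3, with 31, 22 and 25 genes above 0. The medians of all genes were -0.06, -0.05 and 0.04, with 8863, 8541 and 10143 of 18717 above 0. The sign of replicate 1 was opposite to that of the mean of replicates 2 and 3 in 13 of the 40 genes (32.5%), against 39.3% of all genes.

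Both replicate 1 arrays were then left out, an alternative chosen after seeing the data. With 2 arrays in each group limma called MCM5 higher (log2 difference 1.33, adjusted p = 0.0445) and POLA2 lower (log2 difference -1.46, adjusted p = 0.0205). Of all genes 0.695% were called higher and 0.465% lower. This fit too gave all genes 1 shared standard error, of 0.38, so its p-values do not measure the spread of a single gene. After the median gene level of each array was subtracted neither passed, with adjusted p of 0.124 for MCM5 and 0.105 for POLA2 by limma. On these 4 arrays 15 of the 40 genes were higher without overlap (18.9% of all genes) and 8 lower (14.7% of all genes). Of the 15, 7 were among the 12 licensing genes and 4 among the 6 helicase genes. Another 3 were among the 5 regulators of S-phase entry and 1 was among the 6 genes of the clamp and its loader. The 8 were MCM4, CDC45, GINS4, POLA2, POLD1, RRM1, RRM2 and TK1. RRM2 differed by -1.17 (adjusted p = 0.113 by limma), RRM1 by -0.97 (0.279) and CDC45 by -0.88 (0.387), and GINS2 by 1.10 (0.161), none of which passed. The median log2 difference of the 40 genes on these arrays was 0.16, against 0.03 for all genes.

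Several of the differences given above became small or turned on these 4 arrays. In relative level, the difference was 0.15 for CCNE2, against 1.17 on all arrays. POLE2 differed by 0.16 and MCM7 by 0.19, and the RFC1 to RFC5 genes by -0.01 to 0.34. GMNN turned to -0.43 and RRM1 went to -1.02, while GINS1 differed by 0.76 in place of 0.28. PRIM2 differed by 0.94 and GINS2 by 1.06, against 1.25 and 1.02 on all arrays.

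A gene level is the median of the probe sets of that gene, so most of them lie on its side by construction, and their counts show only how evenly they did. The 40 genes were read by 879 probe sets, with 10 to 67 for each gene, and 61.8% of them had a mean difference in relative value above 0, against 46.3% of all probe sets with 1 gene symbol. All 21 probe sets of MCM2 lay above 0, as did 13 of 14 for CDC6, 24 of 26 for MCM3, 20 of 22 for MCM6, 25 of 30 for MCM5, 12 of 14 for GINS2 and 19 of 23 for PRIM2. On the lower side only 3 of 30 lay above 0 for MCM4, 2 of 24 for POLA2, 2 of 23 for CDC45, 3 of 19 for RRM2 and 5 of 28 for RRM1. Other genes were divided, with 7 of 15 above 0 for GMNN, 17 of 34 for UHRF1, 6 of 12 for TYMS and 25 of 44 for POLA1. Probe sets of one gene share the arrays and the RNA and are not replicates of the treatment. Of the 879, 820 were bright enough for a test over 704143 probe sets, and limma called 0 of them, against 0.0197% of all (smallest adjusted p 0.490, a probe set of CCNE2). At an unadjusted p under 0.05, 18 of the 820 were higher and 0 lower, while among all probe sets tested 0.983% were higher and 0.652% lower.

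**Figure D3:**
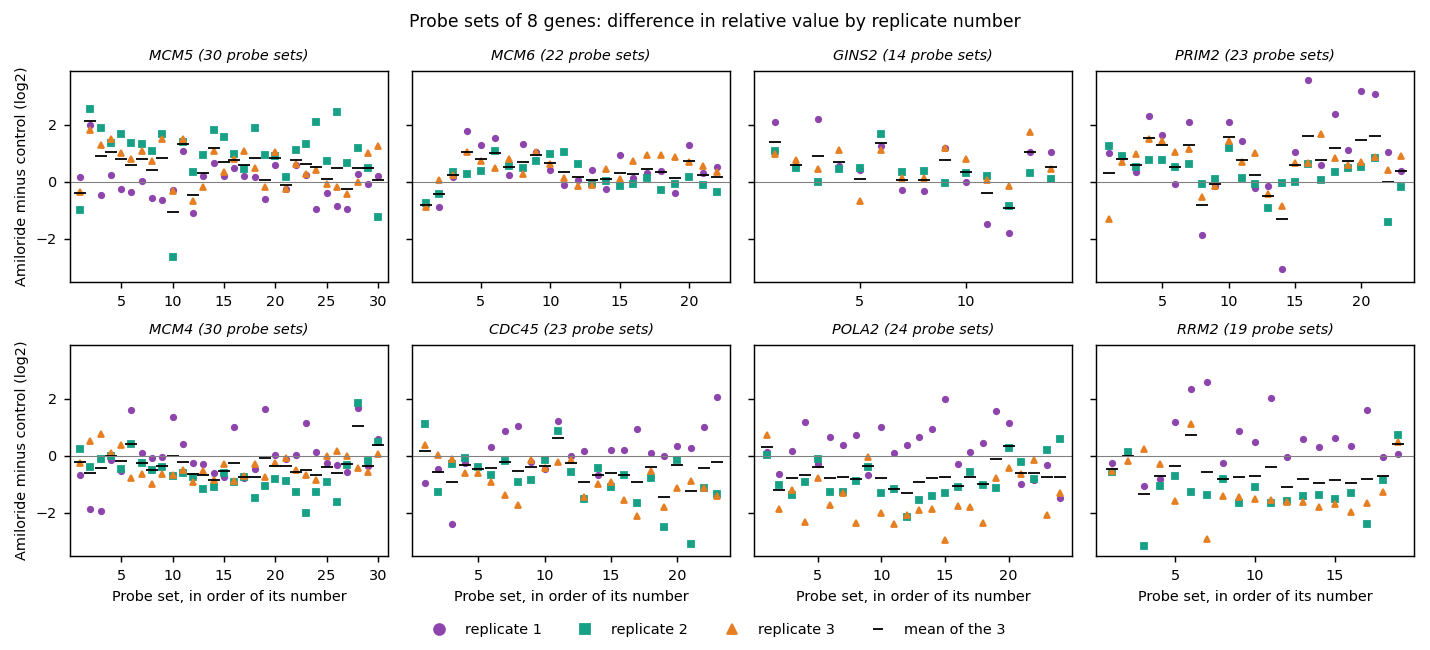
Amiloride minus control in relative value (log2) for each probe set of 8 genes, in order of probe set number, with 1 mark for each replicate number and a black bar for their mean. In the upper row 25 of 30 bars lie above 0 for MCM5, 20 of 22 for MCM6, 12 of 14 for GINS2 and 19 of 23 for PRIM2, and in the lower row 3 of 30 for MCM4, 2 of 23 for CDC45, 2 of 24 for POLA2 and 3 of 19 for RRM2.

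The study's question was one of splicing, so the probe sets were also set against the rest of their gene. The splicing index of a probe set is its log2 value minus the level of its gene, compared between amiloride and control. A drop of at least log2 of 3 in both the index and the probe set itself, with a correlation of at least 0.7 between the profiles of the gene in the groups, was met by 0 of the 40 genes, against 6.94% of all genes. With the signs turned, a single probe set of GINS1 and a single one of PCNA qualified (3.83% of all genes). The index was 1.81 in GINS1 and 2.26 in PCNA. Across the probe sets of a gene the mean profiles of the groups correlated at 0.54 in CCNE2 to 0.99 in GINS4, with a median of 0.94. When single arrays were left out, up to 3 of the 40 genes met the lower criteria: RFC4 without amiloride replicate 1, PRIM2 without control replicate 2, and MCM10, RRM1 and POLE without control replicate 3. No share of all genes is set beside these counts, so they are not read as a result about the 40 genes.

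Other genes of the pathway were read from lists drawn up apart from the 40. Of 35 other replication genes, which include the remaining origin subunits, the single-strand binding protein RPA and the fork protection factors, 0 passed in either direction by limma, and 25 had a higher mean relative level in amiloride, with a median difference of 0.19. The smallest p belonged to ORC4, with a log2 difference of 1.20 as deposited, MCM9, with 1.06, and POLE4, with 1.05. Of 11 further genes of nucleotide supply 0 passed, and those with the smallest p were RRM2B, the p53-regulated small subunit of ribonucleotide reductase (1.02), the histone mRNA binding protein SLBP (-0.56) and the deoxynucleotide hydrolase SAMHD1 (0.54).

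Among 25 genes of E2F and cyclin control 0 passed as well. RB1, which holds E2F factors inactive, had log2 intensities of 7.34, 6.82 and 5.99 in amiloride, against 4.55, 4.77 and 5.19 in controls. All amiloride arrays of RB1 lay above all controls, by 1.88 on average, with an unadjusted p of 0.00438 and an adjusted p of 1.00 by limma. Without the replicate 1 arrays the RB1 difference was 1.42 and passed with the standard error shared by all genes (adjusted p = 0.0254 by limma). It did not pass after median subtraction (0.175). E2F5 and the checkpoint kinase CHEK1 had the next smallest p, with differences of 1.10 and 1.04. Without the replicate 1 arrays these were 0.28 for E2F5 and 0.73 for CHEK1.

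The mitosis genes, which peak after S phase, differed most between the replicate numbers among the lists read. The median difference of 23 such genes was 1.34 at replicate 1, -0.82 at replicate 2 and -0.54 at replicate 3, and 23, 0 and 2 of them lay above 0. Their mean relative level was 1.52 to 2.36 on amiloride arrays and 0.90 to 2.35 on control arrays, with control replicate 1 as the lowest. None of the 23 passed on the 6 arrays by limma, and those with the smallest p were TTK (0.88), NDC80 (0.86) and TOP2A (-0.61). Without the replicate 1 arrays the kinesin genes KIF20A and KIF11 and the topoisomerase gene TOP2A passed as lower, with log2 differences of -1.37, -1.32 and -1.43. That fit used 1 standard error shared by all genes. After median subtraction 0 of the 23 passed. All 23 mitosis genes turned their sign between replicate 1 and the mean of the others, against 13 of the 40 replication genes. The part of control replicate 1 and of the culture's cell cycle state in these differences was not tested.

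**Figure D4:**
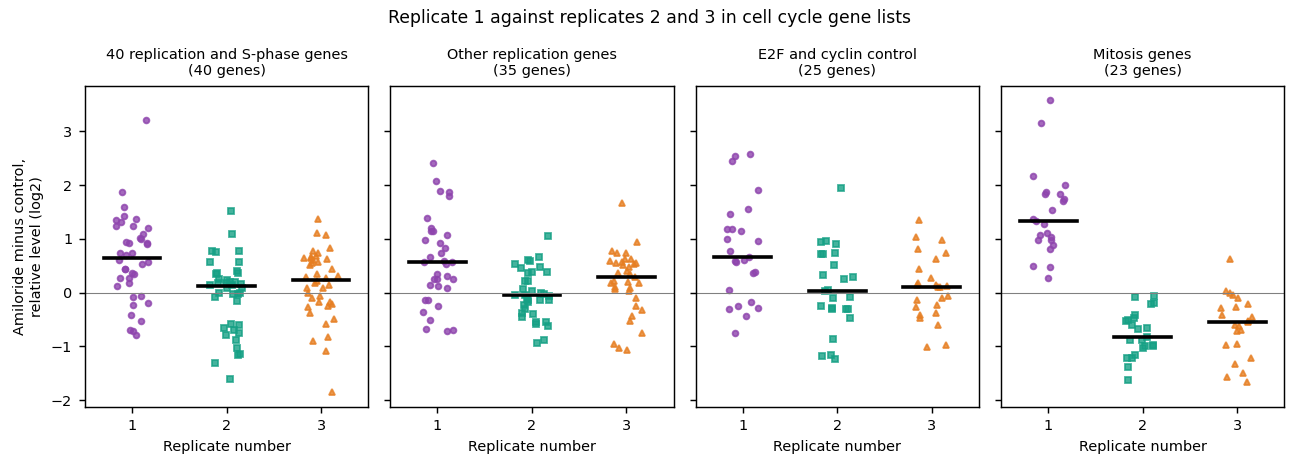
Amiloride minus control in relative level (log2) at each replicate number for the 40 replication and S-phase genes and 3 other lists, with 1 mark for each gene and a bar at the median. The bars of the 40 genes lie at 0.65, 0.12 and 0.24, and those of the 23 mitosis genes at 1.34, -0.82 and -0.54.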

How the data were processed

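The authors used exon arrays of the Human Exon 1.0 ST design, corrected bias with the background probes, and let dChip normalize the arrays and reduce each probe set to a model-based expression value. The deposited values are 1 linear intensity for each of 1408285 probe sets and 6 arrays, and the submitters' processing notes name build hg18. All 6 arrays were used. Values under 1 were set to 1 before log2, and no other scaling was applied for the tests. The platform annotation gave 1 symbol for 357582 probe sets, several for 15322 and none for 1035381. Symbols were updated through RefSeq, 4 of the 40 genes standing under an older one. A gene level was the median over at least 3 probe sets of 1 symbol.

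Genes and probe sets (mean log2 of at least 2.796, the median of all) were fitted by group with limma 3.58.1 (lmFit and eBayes, two-sided) in R 4.3.3 with the package data.table (version 1.17.8), calling adjusted p (Benjamini-Hochberg) under 0.05. The fit was also run on simulated data with 1 noise level for all genes and arrays. Control replicate 1 stood apart in these data, which the simulation did not copy. Probe sets are summaries of few probes, and the number of arrays limits the precision. Relative levels subtract the median gene level of the array, which was on average 0.10 higher in amiloride than in control. Values on every array are given for genes whose groups did not overlap or that were among the 3 largest or 3 smallest log2 differences, with MCM4, PCNA and RRM1 added after their values were seen, and lists beside the 40 genes name their 3 smallest p. The genes, lists and tests were chosen with earlier results of these data known. Alternatives were array scaling, the replicate number as a block, dim probe sets, the value added before log2, the mean over probe sets, an intensity trend and arrays left out. Promoters came from RefSeq GRCh38.p14.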

Additional observations from a re-analysis of the deposited data

How the results depend on the processing

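The count of the 40 genes past the threshold was 0 on all 6 arrays and in every alternative set up at the start, leaving out each array in turn included, and 2 without both replicate 1 arrays (MCM5 and POLA2, chosen after seeing the data). Over all genes 6 passed as deposited, against 2 after median centring, 2 after quantile normalization, 2 with bright probe sets only, 2 with an intensity trend, 1 with the mean over probe sets, 0 with log2(value + 16), and 1 to 6 when single arrays were left out. The smallest adjusted p of the 40 genes was 0.300 after median centring and 0.211 after quantile normalization by limma. Their median log2 difference was 0.43, stayed between 0.33 and 0.48 under the other settings on 6 arrays, was 0.16 without both replicate 1 arrays, and ran from -0.14 to 0.72 when single arrays were left out. It turned to -0.14 without amiloride replicate 1, where the median of all genes was -0.37. The splicing criteria were met by 0 to 3 of the 40 genes when single arrays were left out, against 0 on all arrays. No share of all genes is set beside the counts with an array left out.

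The groups share replicate numbers in the labels. After removal of the group means, gene levels of same-numbered arrays correlated at 0.162, 0.0976 and 0.187, 1 of them under the 0.1 set for pairing, so the arrays were taken to share only a number. Each amiloride array correlated best with the control of its own number. Its highest value with another control was -0.08, -0.01 and 0.12 at replicates 1, 2 and 3. That 0.12 was above the 0.0976 of replicate 2, and the comparison was not made from the side of the controls. The ordering is a hint from the data and not the design. With the replicate number as a block limma called 0 genes of all 18717 and 0 of the 40, with median centring as well. The smallest adjusted p of the 40 genes was 0.180 with the block and 0.198 with the block and median centring.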
